A study of Mus musculus with 19 samples.

Results

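Fat of NOD mice treated with Power Mix was compared with fat of NOD mice treated with AAT, on 5 of the 19 expression arrays of the study. The arrays were chosen by their labels: 3 arrays of Power Mix-treated fat (PM 1 to PM 3) and 2 of AAT-treated fat (AAT 1 and AAT 2). All mice were female NOD (NOD/LtJx) mice, a strain that develops autoimmune diabetes. Power Mix (PM) is a regimen of IL2.Ig, a mutant antagonist-type IL15.Ig and rapamycin, and AAT is alpha1 antitrypsin, an inhibitor of neutrophil elastase and other serine proteases. Both were given to mice with new onset diabetes. The other 4 fat arrays, 2 of non-diabetic NOD mice (NOR) and 2 of mice with new onset diabetes (DIA), served to estimate the spread and to place the levels of the treated mice. Untreated means here given neither regimen. The methods describe insulin doses set by blood glucose and do not say whether the mice of these arrays received insulin. Every label also carries a remark on streptozotocin, used to destroy beta cells of mice made euglycemic by anti-TNF-α. That remark is the same on all samples, the non-diabetic ones included, and does not say which of these mice, if any, received it. The methods name the fat as epididymal white adipose tissue, a depot of males, in their account of insulin signaling in fasted mice given insulin or saline, from which RNA was also purified, and do not say whether the array samples of these female mice came from that experiment. Dose, length of treatment, age at sampling and whether each array came from its own mouse are not given in the sources used here, so the p-values measure the spread between these arrays, which may in part be technical.

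White fat is made of adipocytes set in a stroma of fibroblasts, progenitor cells, blood vessels with their smooth muscle and pericytes, macrophages and lymphocytes, with a mesothelial cover on visceral depots. The 2 regimens act on different molecules. IL2.Ig stimulates the IL-2 receptor, which regulatory T cells carry at a high level, the IL-15 antagonist blocks a cytokine on which NK cells and memory T cells depend, and rapamycin binds FKBP12 and inhibits mTOR complex 1. AAT inactivates proteases that neutrophils release. The comparison therefore asks how fat differs between animals given 1 regimen or the other, not between treated and untreated animals.

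The clearest difference lay in genes of the contractile apparatus of smooth muscle, of which 11 of 14 measured were several-fold lower on every array of PM-treated than of AAT-treated fat. In the lists of extracellular matrix, fibroblasts, TGF-β and BMP signaling and mesothelium most genes lay below the median of all transcripts in PM. In these lists 10 of 26, 4 of 14, 3 of 22 and 5 of 18 passed the study's thresholds with a lower level in PM, against 2.34% of all genes. Genes higher in PM were fewer among well-expressed transcripts and showed smaller changes. Lists of immune cells, of adipocyte genes, of metabolism and of the direct targets of both regimens had medians from -0.36 to 0.42, against -0.07 over all genes. No single transcript passed an adjusted p of 0.05.

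The arrays were checked before the comparison. Adipocyte markers were among the brightest transcripts on all 9 fat arrays: the signal of Fabp4 (fatty acid binding protein of adipocytes) lay between 85600 and 339500 and that of Adipoq (adiponectin) between 15690 and 60260. Markers of other tissues were not all dim. The pancreatic marker Cpa1 stayed between 4.95 and 17.1, but Ins2 lay between 42.89 and 232.8 and Cela2a between 40 and 209.2. Ucp1, which defines brown fat, lay between 4.72 and 123.7, and Cidea, also of brown fat, between 139.8 and 569.1. The lymph node marker Cxcl13 lay between 347.1 and 1942, and the epithelial marker Krt5 between 67.1 and 1742. The share of other tissue in the samples was not tested. The log2 signals of all transcripts correlated at Pearson's r of 0.789 to 0.853 among the PM arrays, at 0.828 between the AAT arrays and at 0.745 to 0.881 between the groups, so that arrays of 1 group were not always closest to each other. PM 2 stood apart, with r between 0.745 and 0.814 to the other 8 fat arrays. Endothelial genes separated arrays within groups: the summed signal of the 23 genes of blood and lymphatic endothelium was 75310 in AAT 1 and 14100 in AAT 2, and 52330, 7991 and 46340 in PM 1, PM 2 and PM 3. The ratio of the 3′ to the 5′ actin control probe set is a sign of RNA integrity. It was 9.08 and 5.87 in AAT and 5.93, 3.35 and 6.32 in PM. In DIA it was 15.2 and 15.5, the highest of the fat arrays, and in NOR 3.63 and 4.3. Levels placed against DIA below thus come with this difference in the ratio. The part of the ratio in the results was not tested beyond a fit that holds it as a covariate.

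Over 45037 transcripts (probe sets), the model fitted with limma to the 9 fat arrays gave 0 transcripts (0%) at an adjusted p under 0.05, and the smallest adjusted p was 0.11. An unadjusted p under 0.05 was reached by 2500 transcripts, and a uniform spread of p-values would give 2252. The median standard error of a log2 change was 0.715, so that the small number of arrays limits what can be seen. The study's own criteria (more than 2-fold apart, with an unadjusted p no higher than 0.05; called the thresholds from here on) were met by 2198 transcripts (4.88%) of 1498 genes. Of these transcripts, 1375 were higher and 823 lower in PM. This split turned with the scaling: it was 907 higher and 1111 lower after quantile normalization, and 1004 higher and 1292 lower after centring each array on its median. It also turned with signal. The transcripts that were higher in PM had a median signal of 101, against 204 for all transcripts and 360 for those that were lower in PM, and at or above the median signal 328 were higher and 532 lower. Among the 100 transcripts with the smallest p, 88 were lower in PM.

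Changes are given below as the log2 difference of PM from AAT relative to the median of all transcripts, which lay 0.17 higher in PM as measured, with the standard error (SE) of the fit. Whether a gene passed the thresholds was judged on the change as measured, before this shift was taken off, so that calls near 2-fold depend on the scaling. The value of a gene is that of its brightest probe set. Counted over 18193 genes, 2.4% passed the study's thresholds with a higher and 2.34% with a lower level in PM, 11.6% had all PM arrays above both AAT arrays and 9.49% had them all below, while 54.8% lay below the median of all transcripts. These shares are the background for the counts in gene lists.

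**Figure D1:**
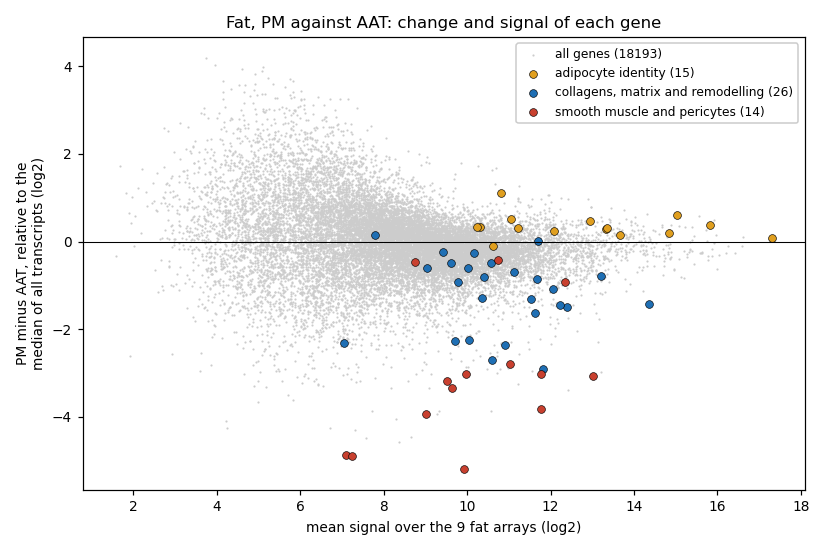
Log2 change of PM from AAT relative to the median of all transcripts (vertical axis) against the mean log2 signal over the 9 fat arrays (horizontal axis), 1 point per gene. The 14 smooth muscle and pericyte genes all lie below 0 and 11 of them at -2.79 or lower, most of the 26 matrix genes lie below 0, and 14 of the 15 adipocyte genes lie above it.

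Smooth muscle genes led the comparison. Of the 14 measured genes of the smooth muscle and pericyte list, all 14 lay below the median of all transcripts in PM, 11 passed the study's thresholds with a lower level in PM and 12 had all 3 PM arrays below both AAT arrays. The median change of the list was -3.12, against -0.07 over all genes. Des, which encodes desmin, the intermediate filament of muscle cells, had signals of 2727 and 4151 in the AAT arrays and of 451.6, 487.9 and 461.6 in the PM arrays. It had the smallest p of all genes, with a change of -3.02 (SE 0.33), or 8.11-fold lower in PM, at an adjusted p of 0.11. Another, dimmer probe set of Des did not show it, with a change of 0.36.

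Myh11, the smooth muscle myosin heavy chain, showed the widest gap in the list. Its signals were 6346 and 11590 in AAT and 471.7, 103.1 and 378.8 in PM, a change of -5.19 (SE 0.82), or 36.5-fold lower in PM (adjusted p = 0.192). Actg2, the γ-actin of smooth muscle, had signals of 2668 and 3270 in AAT and 109.7, 309.4 and 301.3 in PM, a change of -3.94 (SE 0.64, adjusted p = 0.237). Acta2, the α-actin of smooth muscle and the brightest gene of the list, had signals of 25800 and 36470 in AAT and of 4140, 2486 and 6840 in PM, a change of -3.06 (SE 0.55, adjusted p = 0.292). In all 4 of these genes no PM array came near an AAT array.

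The myosin regulators followed the same pattern. Mylk, the kinase that phosphorylates the myosin light chain and so starts contraction, had signals of 9483 and 18520 in AAT and of 2259, 1038 and 2689 in PM, a change of -3.01 (SE 0.49), and its 2 other probe sets changed by -2.61 and -3.04. Myl9, the regulatory light chain itself, had signals of 6912 and 10510 in AAT against 1227, 1009 and 2138 in PM, a change of -2.79 (SE 0.48). Tpm2, a tropomyosin that lies along the actin filament and was not on the list, was 10.4-fold lower in PM, with signals of 20790 and 30030 in AAT against 2801, 1975 and 3560. The further members, named after their values were seen, were Tagln (transgelin) at -3.81, Cnn1 (calponin) at -4.87, Lmod1 (leiomodin) at -4.90, Synpo2 (synaptopodin 2) at -3.36 and Smtn (smoothelin) at -3.18. The 3 members that did not pass the thresholds are typical of pericytes, the cells that wrap capillaries: Rgs5 at -0.93 (SE 0.77), Cspg4 at -0.46 (SE 0.40) and Notch3 at -0.44 (SE 0.39).

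The untreated groups place this gap. Summed over the 14 genes, the signal was 91560 and 126300 in AAT and 20440, 9429 and 26780 in PM, while it was 14050 and 49380 in NOR and 29870 and 25330 in DIA. The AAT arrays thus lay above every other array. Both AAT arrays exceeded the other 7 fat arrays in 11 of the 14 genes, which held for 2.86% of all genes, whereas all 3 PM arrays lay below the other 6 only for Des, which held for 1.01% of all genes. Against DIA, with which both comparisons share the same 2 arrays, Myh11 differed by 3.62 (SE 0.90) in AAT and by -1.60 (SE 0.82) in PM, and Des by 1.94 (SE 0.36) and -1.10 (SE 0.33). The summed endothelial signal, given above, was low in AAT 2, where the smooth muscle sum was highest. The part of vessels in the smooth muscle gap was not tested. In whole tissue, fewer cells of a type and less RNA per cell cannot be told apart.

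**Figure D2:**
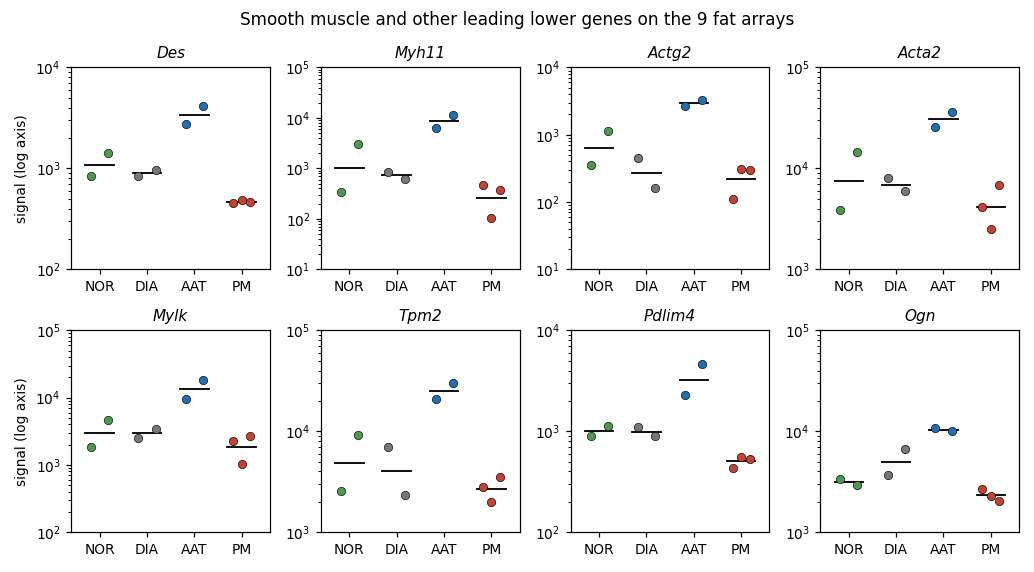
Signal (log axis) of 6 smooth muscle genes and of Pdlim4 and Ogn on the 9 fat arrays, with 1 point per array and a bar at the geometric mean of each group (NOR 2, DIA 2, AAT 2, PM 3). The 2 AAT points lie above all other points in each panel, and for Des, Pdlim4 and Ogn the 3 PM points lie below all others.

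Many smooth muscle genes are driven by serum response factor, which binds a motif called the CArG box, so the promoters of the list were searched for it. Only its strict form was searched for, with A and T bases alone between CC and GG. Of the 11 members with an entry in the RefSeq promoter table (250 bases before to 50 bases after the start of the gene, build GRCm38.p6), 1 held the box, which is its own reverse complement and so was read on both strands at once. That is 9.09% of them, against 1.81% of the 27025 genes in the table, 0 of 18 matrix genes and 0 of 10 adipocyte genes. The gene was Myl9, and its box lies 161 to 152 bases before the start, shown in capitals with 30 bases on each side, on the plus strand at chr2:156775273-156775342:
Myl9: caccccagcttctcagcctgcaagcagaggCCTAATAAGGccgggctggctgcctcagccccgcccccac
A match describes the letters in this window and not a bound site. Boxes with other bases or outside the window were not searched for, so a gene without a match may still hold one. The share of 9.09% rests on 1 gene.

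The matrix and fibroblast lists were next. Of 26 collagen, matrix and remodelling genes, 24 lay below the median of all transcripts in PM, 10 passed the thresholds with a lower level in PM and 13 had non-overlapping arrays, with a median change of -1.01, which ran from -0.40 with the actin ratio as a covariate to -1.58 without AAT 2. Mmp14, a membrane-bound protease that cleaves collagen, had signals of 2383 and 2688 in AAT and 825.5, 799.7 and 325.4 in PM, a change of -2.25 (SE 0.44, adjusted p = 0.399). Postn, which encodes periostin, a matrix protein of remodelling tissue, had signals of 11810 and 12890 in AAT and 3514, 645.3 and 2823 in PM, a change of -2.90 (SE 0.67, adjusted p = 0.505). Dcn, decorin, the brightest gene of the list, had signals of 32620 and 34770 in AAT and of 15890, 15330 and 11530 in PM, a change of -1.42 (SE 0.36). The groups did not overlap in these 3 genes, and both AAT arrays also exceeded all NOR and DIA arrays.

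Loxl1, a cross-linking enzyme of elastic fibers, behaved differently against the untreated mice. Its signals were 1619 and 1574 in AAT and 568.2, 169.3 and 547.8 in PM, a change of -2.26 (SE 0.48), but those of DIA, 1562 and 1739, were at the level of AAT. The members named after their values were seen were Fn1 (fibronectin) at -2.36, Col6a2 at -2.69, Col1a2 at -1.62, Col3a1 at -1.49, Timp2 at -1.45 and Col6a1 at -1.31. The basement membrane collagens Col4a1 and Col4a2 changed by -1.09 (SE 0.90) and -0.69 (SE 0.70), did not pass, and were low in AAT 2, NOR 1 and PM 2, as the endothelial genes were. The count of 10 depended on the settings: it was 5 with the actin ratio as a covariate, 5 without AAT 1 and 6 without PM 2.

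Of 14 preadipocyte and fibroblast genes, 12 lay below the median of all transcripts and 4 passed the thresholds, all lower in PM, and the median change was -1.06, or -0.64 with the actin ratio as a covariate. They were Lum (lumican, a proteoglycan), with signals of 3770 and 3698 in AAT and 1244, 1458 and 1040 in PM, Dcn, Pdgfra (the PDGF receptor that marks fibroblasts and progenitors) at -1.22 (SE 0.46) and Pi16 at -2.22 (SE 0.92). Lum changed by -1.77 (SE 0.39). Other fibroblast markers showed small differences, such as Col1a1 at -0.61 (SE 0.46), Sfrp4 at -0.28 (SE 0.39) and Fap at 0.23 (SE 0.66).

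The list of TGF-β and BMP ligands, receptors and Smads held 22 measured genes, of which 20 lay below the median of all transcripts, 10 had all PM arrays below both AAT arrays and 3 passed the thresholds. Its median change was -0.81. The lead member, Tgfbi, is a matrix protein named for its induction by TGF-β. Its signals were 6292 and 4958 in AAT, 1951, 1674 and 1414 in PM, 5692 and 7295 in DIA and 1472 and 1454 in NOR, so that AAT lay at the level of DIA and PM at that of NOR. The actin ratio was highest in DIA, and its part in this placement was not tested. The change was -1.92 (SE 0.27), or 3.77-fold lower in PM (adjusted p = 0.192), and its 3 other probe sets changed by -1.67 to -1.01.

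Among the ligands, Bmp4 had signals of 966.0 and 1073 in AAT and 474.9, 363.8 and 402.2 in PM, a change of -1.48 (SE 0.37). Bmp2, at 468.0 and 455.1 in AAT and 282.2, 206.5 and 298.0 in PM, and Tgfb1, with a change of -1.27 (SE 0.63), did not overlap between the groups either, and neither passed. The receptors Bmpr1a and Tgfbr1 changed by -1.01 (SE 0.32) and -0.97 (SE 0.34), while Tgfbr2 changed by -0.55 (SE 0.50). Among the Smads, which carry the signal to the nucleus, Smad4 changed by -0.93 (SE 0.36) and Smad3 by -0.10 (SE 0.29). Of the targets, Id2, an inhibitor of basic helix-loop-helix factors, had signals of 1068 and 3264 in AAT and 550.8, 447.9 and 552.4 in PM, a change of -2.03 (SE 0.45), and Id1 changed by -0.24 (SE 0.46). With the actin ratio as a covariate the median of the list was -0.25, its value nearest to 0 under any setting.

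A further list held genes of mesothelium and of the female reproductive tract, tissues that adjoin abdominal fat. In it 14 of 18 genes lay below the median of all transcripts, 5 passed the thresholds, all lower in PM, and the median change was -1.02. Msln, mesothelin, a surface protein of mesothelial cells, had signals of 804.0 and 279.5 in AAT and of 66.5, 37.9 and 96.2 in PM, a change of -3.10 (SE 0.68). Pgr, the progesterone receptor, had signals of 2179 and 1822 in AAT and 366.1, 690.9 and 608.3 in PM, a change of -2.06 (SE 0.44), and its 2 dimmer probe sets changed by -1.42 and 0.47. For Msln both DIA arrays (379.1 and 819.0) and both NOR arrays (381.4 and 210.4) lay above all PM arrays, as AAT did, and for Pgr the NOR arrays (463.9 and 985.3) and the DIA arrays (666.2 and 375.9) lay below both AAT arrays, as PM did.

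The mesothelial factor Wt1 had signals of 1115 and 2193 in AAT and of 452.5, 669.9 and 388.2 in PM, a change of -1.84 (SE 0.40), and the uroplakin Upk3b one of -1.30 (SE 0.29). Some members were high on AAT 2. Krt18, a keratin of simple epithelia, had a signal of 5150 in AAT 2, against 482.0 in AAT 1 and 268.3, 1839 and 432.5 in PM. Without AAT 2 the median of the list was -0.32. The summed signal of the 18 genes was 14050 and 28400 in AAT and 8675, 11890 and 9053 in PM, and the part of such tissue in the lower smooth muscle, matrix and fibroblast genes was not tested. Leaving out AAT 2 cannot decide this, since AAT 1 alone also lay above all PM arrays for Msln, Pgr, Wt1 and Upk3b, though not for Krt18.

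**Figure D3:**
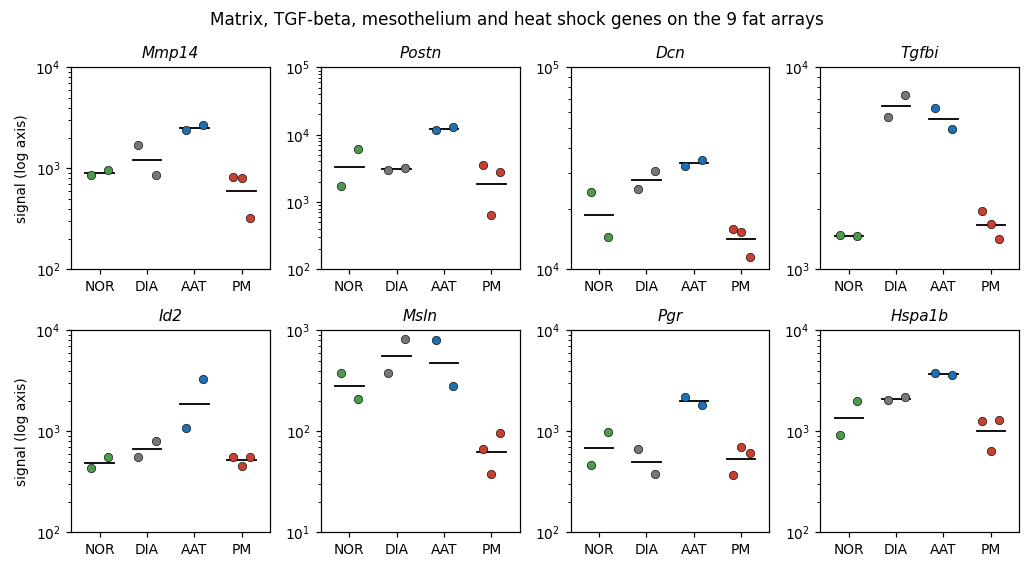
Signal (log axis) of Mmp14, Postn, Dcn, Tgfbi, Id2, Msln, Pgr and Hspa1b on the 9 fat arrays, with 1 point per array and a bar at the geometric mean of each group (NOR 2, DIA 2, AAT 2, PM 3). In each panel all PM points lie below both AAT points, and for Tgfbi the DIA points lie with AAT and the NOR points with PM.

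Other lower genes with small p were on none of the lists above. Ogn (osteoglycin) and Aspn (asporin), small leucine-rich proteoglycans of connective tissue, changed by -2.34 (SE 0.30) and -3.86 (SE 0.60). Ogn had signals of 10770 and 10050 in AAT and 2707, 2268 and 2014 in PM, and Aspn of 3459 and 2742 against 393.2, 119.8 and 285.5. Mgp, matrix Gla protein, an inhibitor of vascular calcification, had signals of 5693 and 8449 in AAT and 1471, 861.7 and 1813 in PM, a change of -2.56 (SE 0.39). None of these ranges overlapped.

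Pdlim4, an actin-associated PDZ and LIM domain protein, had signals of 2285 and 4594 in AAT and of 437.0, 562.0 and 525.2 in PM, a change of -2.85 (SE 0.35, adjusted p = 0.137), the second smallest p of all genes. Ptgis, prostacyclin synthase, which makes a vasodilator in vessel walls, had signals of 3546 and 4028 in AAT and of 547.5, 387.8 and 865.8 in PM, a change of -2.90 (SE 0.38, adjusted p = 0.141). Igfbp6, a binding protein of insulin-like growth factors, changed by -2.31 (SE 0.31), Cdh11, a cadherin of mesenchymal cells, by -2.17 (SE 0.32), and the protocadherin Pcdhb9 by -3.03 (SE 0.43). Antxr1, a collagen-binding receptor, changed by -2.47 (SE 0.37), but its other probe set changed by 0.27. All 15 lower genes chosen for their p passed the thresholds under all 22 alternative settings.

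Stress genes of the cytosol were lower in PM in part. In the list of the unfolded protein and heat shock response, 18 of 20 genes lay below the median of all transcripts, and the list had a median of -0.55 that was 0.02 with the actin ratio as a covariate, and 2 passed the thresholds. Hspa1b, an inducible chaperone of the Hsp70 family, had signals of 3758 and 3571 in AAT and of 1272, 638.8 and 1281 in PM, a change of -2.02 (SE 0.39, adjusted p = 0.399), and its 2 other probe sets changed by -1.44 and -1.63. Hspa1a, its near-identical neighbour, whose probe sets may share transcripts with it, changed by -1.86 (SE 0.70), and the co-chaperones Hsph1 and Dnajb1 changed by -1.16 (SE 0.36) and -0.80 (SE 0.31) without passing. Hspa5 and Calr, chaperones of the endoplasmic reticulum, were spread over the AAT arrays, with 6721 and 1531 for Hspa5, and did not separate the groups.

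The list of genes of the amino acid response held values in both directions, and 2 of its 18 genes, Vldlr and Aldh18a1, passed the thresholds. Vldlr, the VLDL receptor, had signals of 5019 and 6312 in AAT and of 1550, 419.1 and 979.0 in PM, a change of -2.88 (SE 0.51), and its 5 other probe sets changed by -2.47 to -0.08. Aldh18a1, which makes the precursor of proline, the residue in which collagen is rich, changed by -2.07 (SE 0.60). Psat1, an enzyme of serine synthesis, had signals of 1441 and 1195 in AAT and of 2703, 2115 and 2197 in PM, a change of 0.66 (SE 0.28) that did not pass, and all 5 arrays lay below those of NOR (4797 and 3417) and DIA (4462 and 5624). The median of the list was -0.02.

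Genes higher in PM changed less and were mostly dim. The 15 with the smallest p had changes between 0.88 and 2.63 and adjusted p between 0.458 and 0.636. The brightest were Rnf125, a ubiquitin ligase, Cmbl, a hydrolase, and Mrps18a, a protein of the mitochondrial ribosome. Mrps18a had signals of 1181 and 1318 in AAT and of 2584, 3177 and 2073 in PM, a change of 0.88 (SE 0.27) relative to the median, and DIA, at 1218 and 1131, lay with AAT while NOR, at 3040 and 2913, lay with PM. Here too the part of the actin ratio, highest in DIA, was not tested. Rnf125 had signals of 1668 and 1470 in AAT and of 3470, 3356 and 3242 in PM, a change of 0.93 (SE 0.29), with NOR at 3521 and 2900. Cmbl had signals of 1800 and 3551 in AAT and of 7039, 5961 and 4999 in PM, a change of 1.06 (SE 0.33). After centring on the median, these 3 genes no longer passed the thresholds.

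Il1rn, the antagonist of the IL-1 receptor, which damps IL-1 signals, had signals of 196.8 and 156.9 in AAT and 389.1, 1087 and 931.9 in PM. Its change of 1.89 (SE 0.58) was 3.71-fold higher in PM (adjusted p = 0.636), and its 2 other probe sets changed by 0.75 and 0.77. Pik3cb, a catalytic subunit of phosphoinositide 3-kinase, had signals of 281.9 and 176.2 in AAT and of 528.1, 639.2 and 857.0 in PM, a change of 1.40 (SE 0.41). Both genes kept their place past the thresholds under all 22 settings.

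The other genes of this group were Olfr112 (an olfactory receptor) at 2.63, Cyp2c39 (a cytochrome P450) at 2.18, AU015836 at 2.07, Cir1 (a transcriptional corepressor) at 1.99, Pmel (a melanosome protein) at 1.86, Sycp3 (of the meiotic synaptonemal complex) at 1.67, Mapk8ip3 (a scaffold of JNK) at 1.59, Rps27 (a ribosomal protein) at 1.55, Kiss1r (the kisspeptin receptor) at 1.38 and Sebox (a homeobox factor) at 1.34. Of these, Cir1 and Rps27 did not pass without AAT 2, at 0.69 and 0.85. The 2 other probe sets of Mapk8ip3 lay below 0. The other measured ribosomal proteins did not follow Rps27: the list of 16 had 13 below the median of all transcripts and a median of -0.28.

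No gene of the IL-2 and IL-15 axis passed the thresholds, and the intervals are wide. Il2ra, the high-affinity chain of the IL-2 receptor, had signals of 65.3 and 281.2 in AAT and of 95.8, 339.9 and 211.4 in PM, a change of 0.32 with a 95% confidence interval of -1.59 to 2.23. Il2rb, the chain shared by the IL-2 and IL-15 receptors, had signals of 69.8 and 251.1 in AAT and 137.5, 528.2 and 387.9 in PM, a change of 1.03 (interval -0.65 to 2.72). Il15ra, which presents IL-15, was higher on each PM array, at 624.7, 747.0 and 557.3, than on the AAT arrays, at 259.4 and 542.1, with a change of 0.60 (interval -0.40 to 1.60). The intervals of all 3 receptor chains leave room for a change past the study's fold threshold, and a dimmer probe set each of Il2ra and Il2rb changed by -0.10 and -0.03. Il2 itself had the largest change of the list, 1.98 (interval -0.40 to 4.36), from dim signals of 12.1 and 25.4 in AAT and of 23.0, 161.5 and 126.2 in PM, which overlapped.

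Downstream of these receptors, Stat5a and Stat5b changed by 0.03 (interval -0.88 to 0.94) and -0.06 (interval -0.80 to 0.67), and the Stat5 target Cish by 0.11 (interval -0.70 to 0.91). The ligand Il15 changed by 0.46 (interval -0.82 to 1.73) and the kinase Jak3 by 0.11 (interval -1.04 to 1.26), again with room for a change past the fold threshold. Of the 14 measured genes of this axis, 0 passed the thresholds, and the median was 0.09.

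For rapamycin, Mtor itself had signals of 1441 and 1150 in AAT and of 1501, 1075 and 1538 in PM, a change of -0.10 (interval -0.74 to 0.54). Rptor and Rictor, the defining subunits of mTOR complexes 1 and 2, changed by -0.28 (SE 0.31) and -0.32 (SE 0.31), with 2 other probe sets of Rptor at 0.51 and 1.88, and Fkbp1a, which encodes FKBP12, by -0.21 (interval -0.94 to 0.52). The list of 25 genes had a median of -0.22 and 1 gene past the thresholds, Tfeb, the transcription factor of lysosome genes that mTOR complex 1 holds in the cytosol. Tfeb had signals of 473.0 and 505.9 in AAT and of 288.8, 72.8 and 47.2 in PM, a change of -2.46 (SE 0.92, adjusted p = 0.882), and it did not pass without either AAT array or without PM 2 or PM 3. Of 25 autophagy and lysosome genes, 20 lay below the median of all transcripts, and the list had a median of -0.33, and Tfeb and Lamp2, a protein of the lysosome membrane, passed the thresholds, the latter at -1.44 (SE 0.56) with its 3 other probe sets between -1.14 and 0.46. The list of translation factors of the TOP class and of ribosome biogenesis had a median of -0.18 over 19 genes, none past the thresholds. Rapamycin represses the translation of mRNAs with the TOP sequence, which mRNA signals do not measure.

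For AAT, the neutrophil proteases did not pass. Elane, neutrophil elastase, had signals of 23.9 and 88.1 in AAT and of 22.4, 105.7 and 164.4 in PM, and Ctsg, cathepsin G, of 4.42 and 13.6 against 15.5 to 22.5. Prtn3, proteinase 3, had signals of 437.7 and 263.4 in AAT and 464.9, 508.0 and 570.7 in PM, a change of 0.43 (SE 1.01). The list of 16 genes had a median of 0.26 and none past the thresholds.

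**Figure D4:**
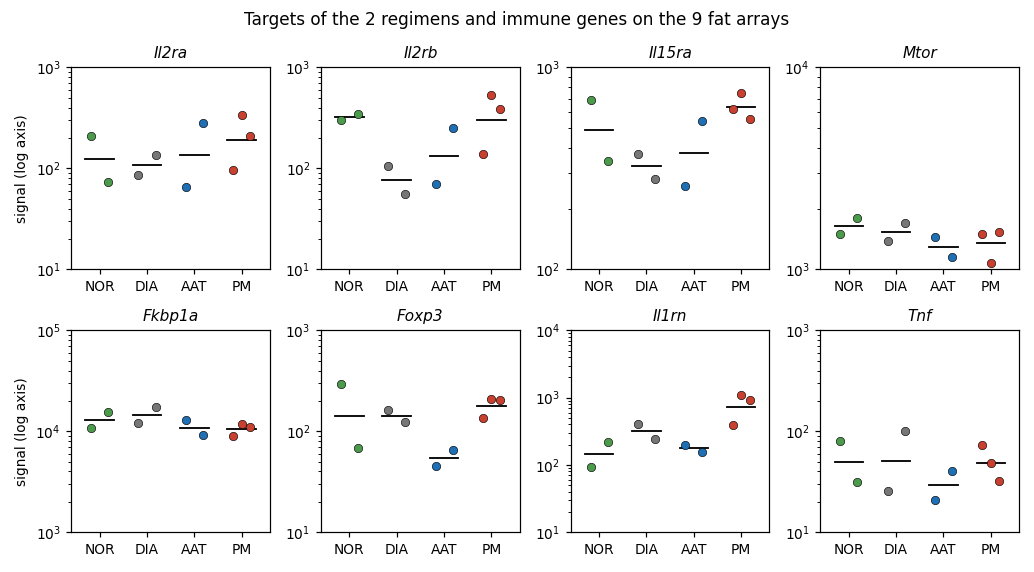
Signal (log axis) of Il2ra, Il2rb, Il15ra, Mtor, Fkbp1a, Foxp3, Il1rn and Tnf on the 9 fat arrays, with 1 point per array and a bar at the geometric mean of each group (NOR 2, DIA 2, AAT 2, PM 3). The PM and AAT points overlap for Il2ra, Il2rb, Mtor, Fkbp1a and Tnf, and the 3 PM points lie above both AAT points for Il15ra, Foxp3 and Il1rn.

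Few immune genes passed the thresholds, and Foxp3 and Gzma were measured at low signal. Foxp3, the defining factor of regulatory T cells, had signals of 45.0 and 65.4 in AAT and of 136.4, 207.2 and 203.1 in PM. Its arrays did not overlap, but it did not pass the thresholds, with a change of 1.55 (SE 0.79, adjusted p = 0.89), and NOR, at 294.5 and 68.2, spread more widely than PM. The 9 regulatory T cell genes had a median of 0.19. Gzma, granzyme A of cytotoxic cells, had signals of 97.6 and 52.8 in AAT and of 202.3, 179.4 and 216.5 in PM, a change of 1.30 (SE 0.64), and passed the thresholds under 9 of 21 settings.

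Of the 13 genes of the T cell receptor and its coreceptors, 9 lay above the median of all transcripts and 1 passed, with a list median of 0.42 that stayed above 0 under all settings. That gene was Themis, a signaling protein of T cells, at 1.15 (SE 0.42), with signals of 378.9 and 168.7 in AAT and 608.6, 695.1 and 589.5 in PM. For Themis both AAT arrays lay below the other 7 fat arrays, which held for 2.69% of all genes, and it did not pass without AAT 2. Its 3 other probe sets changed by -0.86 to 1.12. The subunits Cd3e, Cd3d and Cd3g changed by 0.13 (SE 0.88), -1.05 (SE 1.18) and -0.64 (SE 0.77). NK and cytotoxic cells had a median of 0.25, the B cell lineage of 0.31, and MHC class II and dendritic cells of 0.12, with at most 1 gene past the thresholds in each.

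Plasma cell and macrophage genes were mixed. Irf4, a factor of lymphocytes and plasma cells that fat cells also express, had signals of 509.3 and 2178 in AAT and of 4625, 5525 and 2353 in PM, a change of 1.73 (SE 0.66), but its other probe set changed by 0.07 and it did not pass without AAT 1. Jchain, the joining chain of secreted antibodies, had signals of 9846 and 5310 in AAT and of 4620, 2065 and 1925 in PM, a change of -1.62 (SE 0.70) that did not pass, with both AAT arrays above the other 7 fat arrays. Sdc1, a proteoglycan of plasma cells and epithelia, passed at -1.62 (SE 0.42), with its 3 dimmer probe sets between -0.76 and 0.48. Of 24 macrophage and monocyte genes, 18 lay below the median of all transcripts, and the list had a median of -0.36, and Gpnmb, a marker of lipid-laden macrophages, passed at -1.52 (SE 0.55) while another probe set of it changed by 1.64. Itgam, an integrin chain of myeloid cells, passed at 2.66 (SE 1.18) from signals of 7.89 and 19.1 in AAT and 65.4, 89.4 and 112.8 in PM, near the lower end of detection. Mast cell and eosinophil genes had a median of -0.33 with none past the thresholds.

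The inflammatory ligands gave few differences. Tnf had signals of 21.0 and 40.2 in AAT and of 72.9, 48.7 and 32.4 in PM, a change of 0.58 (interval -1.65 to 2.80), and the list of TNF, lymphotoxins and their receptors had a median of -0.32 with none past the thresholds. The chemokine list had a median of 0.00. Within it, Cxcl12, a stromal chemokine, had signals of 3223 and 3643 in AAT and of 1810, 2097 and 1848 in PM, a change of -1.01 (SE 0.26) without passing, and Cxcl1, which draws neutrophils, had 486.0 and 568.0 in AAT and 1265, 1119 and 988.8 in PM, a change of 0.92 (SE 0.36) that passed. As measured these changes were -0.84 and 1.09, so that both calls turn on the scaling, and the 2 other probe sets of Cxcl1 changed by -0.09 and 0.25. Bcl3, a nuclear partner of NF-κB, passed at -3.07 (SE 0.98), from dim signals of 128.4 and 188.2 in AAT and 11.24, 12.95 and 62.48 in PM. The list of NF-κB subunits and inhibitors had a median of -0.25. The IL-1 and IL-6 family had a median of -0.10 with Il1rn alone past the thresholds, and the 22 interferon-stimulated genes a median of -0.19 with none.

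Adipocyte genes lay slightly above the median of all transcripts in PM. Of 15 adipocyte identity genes, 14 lay above the median of all transcripts, 5 had all PM arrays above both AAT arrays and 0 passed the thresholds, with a median of 0.32 that was -0.15 without AAT 2. Pparg, the master regulator of adipocytes, had signals of 1996 and 1717 in AAT and of 3544, 2507 and 2975 in PM, a change of 0.52 (SE 0.33). Adipoq had signals of 31860 and 15690 in AAT and 60260, 21030 and 43790 in PM, a change of 0.60 (SE 0.56), with AAT 2 and PM 2 the lowest arrays of their groups. All 3 PM arrays lay above the other 6 fat arrays for the transcription factors Cebpb, Cebpd and Klf15, which held for 1.27% of all genes. The glucocorticoid list, which shares Cebpd, had a median of 0.15, or -0.32 without AAT 2, and for its members Klf9 and Tsc22d3 both AAT arrays lay above the other 7, with changes of -0.58 (SE 0.33) and -0.77 (SE 0.46) that did not pass.

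Brown fat and thermogenesis genes had a median of 0.41, and 11 of 13 lay above the median of all transcripts. Cox8b, a cytochrome oxidase subunit of brown fat and muscle, passed at 1.16 (SE 0.59), from signals of 619.4 and 270.2 in AAT and 1441, 928.9 and 809.5 in PM. Ucp1 was dim, with overlapping signals of 4.72 and 30.2 in AAT and 15.69, 67.71 and 15.36 in PM. Among adipokines, with a list median of 0.17, Lcn2, lipocalin 2, was alone in passing, at 3.37 (SE 1.55) from signals of 41.5 and 3.54 in AAT and 118.0, 296.4 and 79.7 in PM. Lep, leptin, varied too much between arrays to compare, with 2252 and 63.1 in AAT and 599.8, 28.2 and 619.8 in PM.

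Metabolic lists lay close to the median of all transcripts. Fatty acid synthesis had a median of -0.08 over 17 genes, with Scd2, a desaturase, past the thresholds at -1.53 (SE 0.46) and its 2 other probe sets at -0.91 and 0.29. Lipogenic regulators were at -0.13, triglyceride assembly at 0.25, cholesterol synthesis at 0.03, lipolysis at 0.09, fatty acid oxidation at 0.14, glycolysis at -0.27 and oxidative phosphorylation at 0.08, with none past the thresholds in any of these. The fasting genes that insulin represses had a median of -0.06 and none past, and the insulin receptor to Glut4 list a median of -0.06 with Pik3cb past. Without AAT 2, triglyceride assembly was at -0.25 and lipolysis at -0.68. Of all 54 lists, 13 kept the sign of their median under all 15 settings tried, namely the lists of smooth muscle, matrix, fibroblasts, TGF-β and BMP, mesothelium, mTOR, TNF, interferon-stimulated genes, T cell receptor, mast cells, brown fat, ribosomal proteins and TOP translation factors, and every other list median had the opposite sign, or was 0, under at least 1 of them. A kept sign sets mTOR, TOP translation factors and interferon-stimulated genes little apart, since their medians reached -0.01, -0.01 and -0.02 and the median over all genes was -0.07.

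The remaining lists are given by their medians. Growth and stress lists were at -0.09 for the circadian clock, -0.25 for hypoxia and VEGF, 0.14 for antioxidants and metallothioneins, -0.28 for the Myc family, -0.22 for MAP kinases and -0.40 for RNA splicing factors, which were at 0.08 with the actin ratio as a covariate, with none past the thresholds. Immediate early genes were at -0.09, with Fosl2, an AP-1 subunit, past at -1.53 (SE 0.40) while its other probe set changed by 0.18, and cell cycle genes at -0.04, with Birc5 higher and Bub1b lower from signals at or under 230.2. Among other tissues, endothelium was at -0.58 with none past and at 1.44 with the actin ratio as a covariate, and skeletal muscle was at -0.69 with Atp2a1, a calcium pump of muscle, past at -1.96 (SE 0.81). Erythroid and platelet genes were at 0.28 and mammary and skin epithelium at 0.09 with none past, nerve and Schwann cells at 0.36 with Pmp22 past at -1.28 (SE 0.42) and Prph at 1.02 (SE 0.53), whose 3 other probe sets lay between -0.94 and 0.64, pancreas at 0.18 with Cel past at 1.62 (SE 0.77), and immunoglobulin and plasma cells at -0.13.

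**Figure D5:**
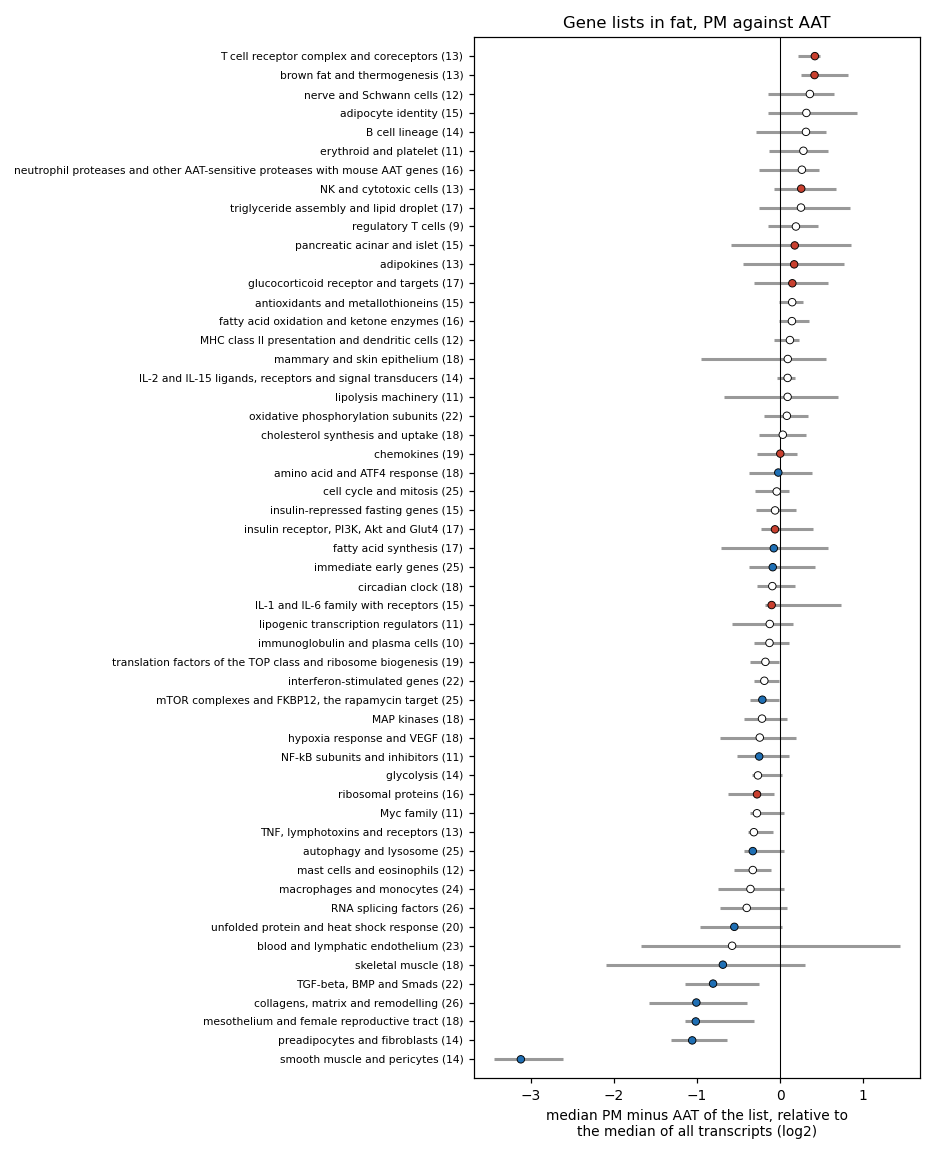
Median log2 change of PM from AAT relative to the median of all transcripts (horizontal axis) for the 54 gene lists, with the number of measured genes in parentheses. Gray bars span the lowest to the highest median over 15 alternative settings; points are red where more members passed the study's thresholds with a higher level in PM, blue where more passed with a lower level, and white where neither did or both did equally, and the smooth muscle list lies apart from the others at -3.12.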

How the data were processed

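Fat RNA was extracted with Trizol, amplified, labelled with biotin and hybridised to Affymetrix Mouse Genome 430 2.0 arrays. The authors deposited MAS5 intensities, 1 linear signal per probe set, with each array scaled to a trimmed mean of 500 (the highest and lowest 2% left out). The study's methods name RMA values and a rank product test for normal against diabetic mice, which was not run here: its permutations run over genes, and only the MAS5 signals were used.

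Groups were taken from the labels. Signals under 1 were set to 1 and log2 transformed, and 64 control probe sets were left out. A model with 1 mean per group was fitted in limma 3.58.1 (R 4.3.3) to the 9 fat arrays (NOR 2, DIA 2, AAT 2, PM 3), with variances moderated along mean signal. P-values of PM against AAT as measured were adjusted by Benjamini-Hochberg over 45037 probe sets. Confidence intervals are at 95%. Scripts were tested on simulated data.

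Of the probe sets, 34945 named 1 gene, 932 several and 9160 none in the platform annotation, and 34741 symbols were updated through Entrez identifiers. A gene was read from its probe set of highest mean. Probe sets without a single gene were tested but not named. The 54 lists (858 of 941 genes measured) are described by counts and medians, with no set test. Named genes were the 15 per direction with the smallest p among those past both thresholds, not overlapping between PM and AAT and with a mean at or above the median signal, in each list the 3 of smallest p and the 1 of highest mean, and the preset targets of the regimens with Foxp3, Tnf, Adipoq and Lep (Il2rg was not analysed here). Any other gene was named after its values were seen. The comparison, the members and the lists were chosen with earlier results of these data known. Promoter sequences are from RefSeq (GRCm38.p6), searched for the CArG box in 250 bases before to 50 after the start. Alternatives comprised filters, scalings, floors, the variance model, an actin covariate, a replicate block and leaving out each array.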

Additional observations from a re-analysis of the deposited data

Results flagged for a closer look

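In 26 of the 234 genes named by the rule and in 2 lists the PM and the AAT arrays lay on opposite sides of both DIA arrays. The share over all genes was not counted. Many of the named genes were chosen for a small p between PM and AAT, so the count describes the chosen genes only. For some of them the distances from DIA were within their SE, as for Ciart at 0.36 (SE 0.60) in PM and -0.39 (SE 0.66) in AAT. The difference between the treatments is the contrast tested in the report, relative to the median of all transcripts. Since both treatments are set against the same 2 DIA arrays, the opposite signs are not independent of each other, and a DIA array far from its true level would move both. Both DIA arrays also had a higher actin ratio than the other fat arrays, and its part in these counts was not tested.

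Of the 26 genes, 20 were higher in AAT than in DIA and lower in PM. They were Des with a PM to AAT change of -3.02, Myh11 with -5.19, Pdlim4 with -2.85, Ogn with -2.34, Aspn with -3.86, Mgp with -2.56, Ptgis with -2.90, Cdh11 with -2.17, Antxr1 with -2.47, Pcdhb9 with -3.03, Aldh18a1 with -2.07, Bmp4 with -1.48, Cxcl12 with -1.01, Dcn with -1.42, Fosl2 with -1.53, Hspa1b with -2.02, Id2 with -2.03, Ier5 with -1.14, Mmp14 with -2.25 and Vldlr with -2.88. In Des, AAT lay 1.94 (SE 0.36) above DIA and PM 1.10 below it (a change of -1.10, SE 0.33). In Ptgis the distance was mainly on the side of PM, at -2.35 from DIA against 0.58 for AAT.

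The 6 genes with the reverse order, higher in PM and lower in AAT than in DIA, were Olfr112 with 2.63, Cyp2c39 with 2.18, Kiss1r with 1.38, Rps27 with 1.55, Themis with 1.15 and Ciart with 0.77. For Olfr112 the DIA signals were 81.4 and 204.4, for Cyp2c39 137.0 and 251.5, and for Kiss1r 391.8 and 406.4. The 2 lists were the T cell receptor complex and coreceptors, with a median of 0.42, and TGF-β, BMP and Smads, with a median of -0.81. Each array's list median, taken over log2 deviations from the gene means, came close to DIA in both lists. In the T cell list it was 0.223 in PM 1 and 0.215 in DIA 2. In the TGF-β list it was 0.237 in AAT 2 and 0.176 in DIA 2.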

How the results depend on the processing

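Under 22 alternative settings no transcript reached an adjusted p under 0.05, except 1 without AAT replicate 1. That was a probe set of Nrp1, a neuropilin, with an adjusted p of 0.0257 in limma against 0.897 with all arrays, and its signals were 1541 in AAT 1, 20.8 in AAT 2 and 827.6, 891.2 and 905.3 in PM. The number past the study's thresholds, 2198 with all arrays and transcripts, was 1057 after leaving out transcripts under the 40th percentile of signal, 579 under the 60th percentile and 838 with 1 probe set per gene, where fewer transcripts were tested. Leaving out single arrays gave 1522 (without PM 2) to 3496 (without PM 1), with 3384 without AAT 2. The share of these that were higher in PM, 62.6%, was 46.5% and 29.4% under the 2 filters, 44.9% after quantile normalization, 43.7% after median centring, 52.0% with 1 probe set per gene, and 49.7% (without PM 3) to 81.4% (without AAT 2) without single arrays, with 50.3% without PM 2; the cause was not tested.

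PM and AAT share the replicate numbers 1 and 2, and nothing in the labels ties equal numbers to a mouse or a batch. Deviations from the group means correlated at 0.25 between PM 1 and AAT 1 and at 0.291 between PM 2 and AAT 2. With the numbers as a replicate block, 0 transcripts were called, 1546 passed the thresholds and 48.5% of them were higher in PM.

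The 11 smooth muscle genes passed in every setting except the filters, which removed the dimmer ones and left 10 and 9. Over all named genes 5058 values were compared, of which 139 lost and 117 gained a place past the thresholds and 0 changed direction while past them. Of 810 list medians compared, 123 moved by more than the spread between arrays. With 2 AAT arrays and 3 PM arrays, whose median standard error was 0.715, differences of the size of the study's fold threshold were often not detectable, and dim signals are the least certain.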
